A study of Sus scrofa with 67 samples.

Results

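The comparison described here asks what an earlier period of mild protein restriction left behind in the muscle of growing pigs once all of them ate the same diet. It sets the LP-STD pigs (n = 12) against the STD-STD pigs (n = 12), which are 24 of the 67 libraries of the series and were chosen by their titles. All came from Swiss Large White pigs, and RNA was sequenced from the longissimus dorsi, the long muscle of the back. In weeks 1 to 4 after weaning the LP-STD pigs ate a low protein diet with 81% of the total and 79% of the digestible crude protein of the standard diet, and in weeks 5 to 8 they ate the standard diet. The STD-STD pigs ate the standard diet throughout. The study's pigs were females and castrated males from 20 litters, and the litter, sex and day of sampling of each library are not given. Other pigs that had eaten the low protein diet received extra digestible lysine in weeks 5 to 8, 10% more in LP-STD10 (n = 12) and 20% more in LP-STD20 (n = 12). Pigs of the first period form the groups LP (n = 6) and STD (n = 6), on the low protein and the standard diet.

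Muscle builds protein when amino acids and insulin are plentiful and breaks it down when they are scarce. Amino acids act through the kinase complex mTORC1, which promotes translation, and through the transcription factor ATF4, which in shortage induces genes for amino acid synthesis, uptake and loading onto transfer RNA. Fasting or low insulin shifts muscle from glucose to fatty acids, with PDK4 as one of the most responsive genes. The back muscle of the pig consists mostly of fast fibres, with a minority of slow fibres that express their own troponins and myosin light chains.

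Total counts were 28871431 to 36482944 per library in LP-STD and 29052141 to 36634720 in STD-STD. Transcripts of skeletal muscle were abundant, though they do not tell the back muscle from other muscles. Of counts scaled to a common library size, ACTA1, the actin of skeletal muscle, took 8.59 to 18.8%. The muscle creatine kinase CKM took 2.63 to 4.93%. The heavy chain genes MYH1, MYH2, MYH4 and MYH7 could not be analysed, since these symbols are absent from the deposited counts. Y-linked genes were above 10 CPM (counts scaled to a common library size) in 6 of 12 libraries of each group. Each group was numbered as 3 runs of 4 consecutive libraries, replicates 1 to 4, 5 to 8 and 9 to 12, and what a run stands for is not stated. Libraries with Y-linked genes above 10 CPM were not even over the runs, with 2, 3 and 1 of 4 in LP-STD and 3, 2 and 1 of 4 in STD-STD. Transcripts of another organ marked 2 STD-STD libraries. Replicate 10 held 75.5 CPM of ALB, the plasma protein made in liver, against at most 1.38 CPM in the other STD-STD libraries and 0.92 CPM in LP-STD. Replicate 4 held 51.2 CPM of UMOD, a kidney protein, against at most 3.41 CPM in the other STD-STD libraries and 2.09 CPM in LP-STD. Of 6 liver transcripts tested 5 were lower in LP-STD at an unadjusted p under 0.05, with a median log2 difference of -2.06 that was -0.24 without both libraries. Of 10 kidney transcripts 8 were lower, with a median of -1.99 that was -0.80 without them. With the libraries of a run treated as correlated, 1 liver and 2 kidney transcripts were lower.

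No gene passed the comparison of the groups. Of 13032 genes tested 0 (0%) had an adjusted p under 0.05 (edgeR quasi-likelihood test, Benjamini-Hochberg adjustment), and the lowest adjusted p was 0.122. At an unadjusted p under 0.05, used below to describe lists, 589 genes (4.52%) were higher and 730 (5.6%) lower in LP-STD. The median log2 difference of all genes was -0.01, with 6214 above 0, and the median SE was 0.11. For 11656 genes (89.4%) the 95% interval of the difference, taken gene by gene, lay between -1 and 1, which is 2-fold either way. These intervals treat libraries as independent, and with the libraries of a run treated as correlated (limma voom) the number was 11307 (86.8%). DESeq2 called 7 genes at the same threshold (PDK4, ZNF236, KLF11 and ZC3H14 higher, SLC17A7, DPYS and STRA6 lower) and limma voom with quality weights called 0. DPYS stood at 13.0 CPM in STD-STD replicate 4, the library with kidney transcripts. The other STD-STD libraries held at most 1.24 CPM of it and LP-STD at most 0.58 CPM. When the libraries of a run were treated as correlated (limma voom), 0 genes passed, and 415 (3.18%) were higher and 451 (3.46%) lower at an unadjusted p under 0.05. That fit used a single correlation of 0.0774 for all genes, so genes that differ strongly between runs are adjusted little. With counts summed over each run of 4 (edgeR), 0 of 13032 genes passed. At an unadjusted p under 0.05, 294 were then higher and 366 lower.

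The runs differed from one another within LP-STD. There 224 of 12522 genes (1.79%) differed between the 3 runs at an adjusted p under 0.05 (edgeR quasi-likelihood test), against 1 gene (0.00799%), CHST9, between the runs of STD-STD, and the difference between these counts was not tested. At an unadjusted p under 0.05 the counts were 2227 and 814. Over both groups together 129 genes (1.03%) differed. The mitochondrial ATP-magnesium carrier SLC25A25 had run means of 128, 126 and 316 CPM in LP-STD. The acetyltransferase subunit NAA20 had run means of 37.1, 56.3 and 33.6 CPM, and the glycolytic enzyme PGAM1 had 16.5, 32.3 and 23.7 CPM. Run 3 stood high in the first of these genes and run 2 in the others.

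Of 23 genes of the heat shock response, the chaperones that refold damaged proteins, 7 differed between the runs of LP-STD. The co-chaperone DNAJB1 had run means of 40.6, 90.3 and 42.9 CPM, and the chaperone HSPH1 had 18.8, 45.4 and 14.5 CPM, both highest in run 2. Of 20 circadian genes 5 differed. The clock repressor CRY2 had run means of 116, 62.2 and 109 CPM, and the clock regulator NR1D2 had 120, 71.5 and 125 CPM, both lowest in run 2. Whether these genes bear on the group differences was not tested. Without run 2 of LP-STD 188 of 13202 genes passed the group comparison, 92 (0.697%) higher and 96 (0.727%) lower, among them PDK4, KLF11, ZNF236 and KDM4A (higher) and KLHL18 (lower). Without run 1 of LP-STD 0 passed, and 253 (1.92%) were higher and 312 (2.36%) lower at an unadjusted p under 0.05.

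The gene with the lowest p among those higher in LP-STD was PDK4 (chromosome 9, 75246956 to 75260134, Sscrofa11.1), the kinase that shuts pyruvate dehydrogenase and so spares glucose. In LP-STD it stood at 412, 562, 237 and 739 CPM in run 1, at 26.6, 4.11, 4.59 and 3.63 CPM in run 2 and at 9.24, 2.99, 55.7 and 9.15 CPM in run 3. In the 12 STD-STD libraries it ranged from 2.06 to 24.1 CPM with a median of 4.12 CPM. All 4 libraries of run 1 lay above every STD-STD library, 2 others did so (26.6 and 55.7 CPM), and the remaining 6 lay within the STD-STD range. The log2 difference was 4.87 ± 1.02 (SE; 95% interval 2.82 to 6.92), adjusted p = 0.124 (edgeR). With correlated runs it was 2.84 ± 1.34, adjusted p = 0.731 (limma voom), and without run 1 of LP-STD it was 1.31. PDK4 differed between the runs of LP-STD (edgeR adjusted p = 0.0046).

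KLF11 (chromosome 3, 126419011 to 126429890), a zinc finger transcription factor, was shaped in the same way. Its run 1 values in LP-STD were 16.8, 10.5, 6.55 and 8.47 CPM, the other LP-STD libraries lay between 1.31 and 5.28 CPM, and STD-STD lay between 1.21 and 2.59 CPM with a median of 1.85 CPM. The log2 difference was 1.45 ± 0.36, adjusted p = 0.215 (edgeR), and 0.39 without run 1 of LP-STD. UCP3, a mitochondrial carrier that muscle makes more of when fatty acids are burned, had run means of 101, 35.4 and 63.2 CPM in LP-STD and 39.4, 30.6 and 36.1 CPM in STD-STD, a log2 difference of 0.90 ± 0.30 that was 0.48 without run 1 of LP-STD. Of 26 genes of fatty acid use 4 were higher and 0 lower at an unadjusted p under 0.05, with 23 differences above 0 and a median of 0.08. In the 3 sets of 16 consecutive libraries, each holding 1 run of either group, that median was 0.27, -0.02 and -0.01.

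**Figure D1:**
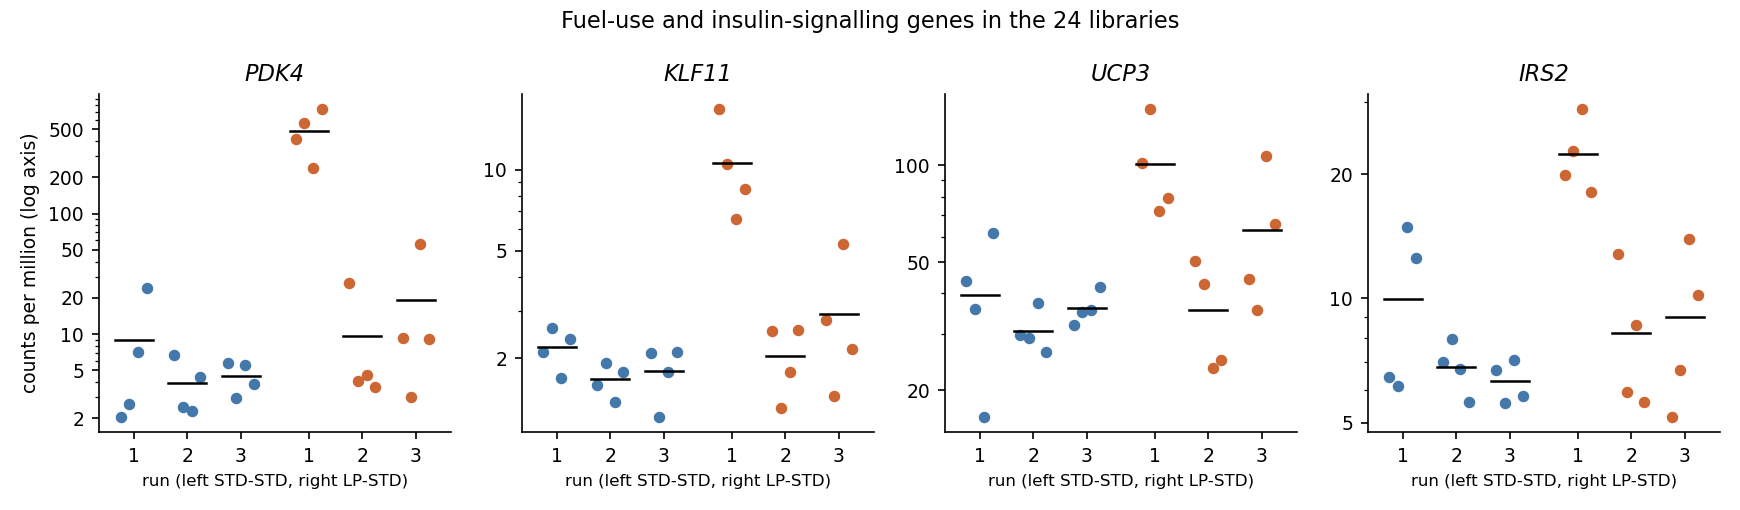
Each point is 1 library, in CPM on a log axis, for PDK4, KLF11, UCP3 and IRS2, with STD-STD in blue and LP-STD in orange by run of 4 libraries, and the line is the mean of a run. Run 1 of LP-STD had the highest mean in all 4 genes, with PDK4 at 488 CPM against 9.74 and 19.3 CPM in runs 2 and 3.

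IRS2 and INSR of the insulin pathway also had their highest run mean in run 1 of LP-STD. IRS2, the adaptor that couples the insulin receptor to phosphoinositide 3-kinase, had run means of 22.4, 8.24 and 8.99 CPM in LP-STD and 9.99, 6.83 and 6.29 CPM in STD-STD. Its log2 difference was 0.77 ± 0.25, and 0.16 without run 1 of LP-STD. INSR, the insulin receptor, had run means of 5.98, 2.57 and 3.89 CPM against 3.07, 2.26 and 2.81 CPM, a difference of 0.60 ± 0.21 that was 0.25 without run 1 of LP-STD. Both genes differed between the runs of LP-STD (edgeR adjusted p = 0.022 for IRS2 and 0.049 for INSR). The adaptor GRB10, which restrains the receptor and is stabilised by mTORC1, was higher by 0.44 ± 0.17. Without run 1 of LP-STD it was higher by 0.16. MTOR, the kinase of mTORC1, was higher by 0.11 ± 0.05, with 31.5 to 40.0 CPM in STD-STD and 30.3 to 44.0 CPM in LP-STD. PIK3R1, the regulatory subunit of phosphoinositide 3-kinase, went the other way by -0.26 ± 0.16, with medians of 38.4 CPM in LP-STD and 53.1 CPM in STD-STD. Of 25 genes of mTORC1 and insulin signalling 5 were higher and 1 lower at an unadjusted p under 0.05, with 15 differences above 0 and a median of 0.04. Without run 1 of LP-STD 0 were higher and 0 lower with a median of 0.003. With counts summed over each run 0 were higher and 0 lower.

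Genes of the amino acid response lay higher in LP-STD. Of 35 tested, 16 were higher and 1 lower at an unadjusted p under 0.05, 30 differences were above 0, and the median was 0.46 on the log2 scale, against 4.52% higher, 5.6% lower and a median of -0.01 over all genes. With correlated runs 10 were higher and 0 lower. The mean log2(CPM + 0.5) of the list was 4.15 to 5.50 in STD-STD (median 4.87) and 4.27 to 6.06 in LP-STD (median 5.10), so the groups overlapped. Its run means were 5.51, 4.77 and 5.24 in LP-STD and 4.81, 4.61 and 4.86 in STD-STD. The medians of the gene differences in the 3 sets were 0.67, 0.18 and 0.27. Without run 1 of LP-STD the median was 0.26 with 3 genes higher, and with 2 surrogate variables it was 0.33 with 3 genes higher. Leaving out run 2 of STD-STD also left 3 higher, with a median of 0.36, and leaving out run 2 of LP-STD gave 23 higher.

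Among the enzymes of this response ASNS, asparagine synthetase, ranged from 79.5 to 326 CPM in STD-STD (median 125) and from 50.6 to 379 CPM in LP-STD (median 214), a log2 difference of 0.53 ± 0.27. CHAC1, which degrades glutathione, ranged from 1.21 to 25.9 CPM and from 1.03 to 103 CPM, a difference of 1.42 ± 0.66 that was 0.72 without LP-STD replicate 10 and 0.16 without run 3 of LP-STD. FGF21, a hormone that muscle secretes under mitochondrial or amino acid stress, was higher by 1.23 ± 0.40, with 2.18 to 8.60 CPM in STD-STD and 3.03 to 55.0 CPM in LP-STD, and by 0.68 without LP-STD replicate 10. ATF4, the regulator itself, was higher by 0.22 ± 0.12, with medians of 1280 CPM in LP-STD and 1170 CPM in STD-STD. The gene that lay lower was DDIT3, a transcription factor of the stress response that follows ATF4, at -0.41 ± 0.18.

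Transporters that import amino acids were among the members. SLC7A1, a carrier of lysine and arginine, ranged from 3.65 to 21.0 CPM in STD-STD (median 4.51) and from 4.03 to 36.8 CPM in LP-STD (median 10.2). Its log2 difference was 0.91 ± 0.31, and the first run of LP-STD had the highest run mean at 20.5 CPM. Without that run the difference of SLC7A1 was 0.35. SLC7A5, which carries leucine and other large amino acids, was higher by 0.58 ± 0.22, and SLC38A2, which carries small neutral amino acids, by 0.46 ± 0.17. Over 25 amino acid transporters, 5 of them shared with the amino acid response, 5 were higher and 0 lower at an unadjusted p under 0.05, and the median was 0.09. Without run 1 of LP-STD 0 were higher with a median of 0.04, and with counts summed over each run 2 were higher.

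The aminoacyl-tRNA synthetases, which load amino acids onto transfer RNA, lay higher too. Of 20 cytosolic members 11 were higher and 0 lower at an unadjusted p under 0.05, also with correlated runs, 19 differences were above 0 and the median was 0.18. IARS1, for isoleucine, ranged from 80.8 to 242 CPM in STD-STD (median 126) and from 112 to 277 CPM in LP-STD (median 200), a difference of 0.48 ± 0.16. CARS1, for cysteine, ranged from 11.8 to 38.9 CPM (median 20.5) and from 15.0 to 52.3 CPM (median 30.0), a difference of 0.54 ± 0.18, and MARS1, for methionine, was higher by 0.34 ± 0.15. The list shares 5 genes with the amino acid response. Its medians in the 3 sets were 0.37, 0.14 and 0.06, and without run 1 of LP-STD 0 were higher and 1 lower with a median of 0.10. Without run 2 of STD-STD 2 were higher, as with 2 surrogate variables.

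Ribosomal protein genes had small differences, nearly all above 0. Of 47 cytosolic ribosomal protein genes 15 were higher and 0 lower at an unadjusted p under 0.05, 46 differences were above 0, and the median was 0.10. With correlated runs 11 were higher, and with counts summed over each run 6 were higher. The differences reached at most 0.19 on the log2 scale. Medians in the 3 sets were 0.21, 0.02 and 0.07, and without run 1 of LP-STD the median was 0.04 with 1 gene higher. Reads of these genes can be shared with near-identical copies elsewhere in the genome, and how the counting treated them is not given in the sources used here. Of 21 translation factors 4 were higher and 0 lower, with 18 differences above 0 and a median of 0.07. EIF4EBP1, which holds back cap-dependent translation until mTORC1 phosphorylates it, ranged from 45.2 to 96.1 CPM in STD-STD (median 56.5) and from 49.7 to 127 CPM in LP-STD (median 83.8), a difference of 0.45 ± 0.14. EIF2S2, a subunit of the factor that brings the initiator transfer RNA to the ribosome, was higher by 0.34 ± 0.10, with medians of 225 CPM in LP-STD and 171 CPM in STD-STD.

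**Figure D2:**
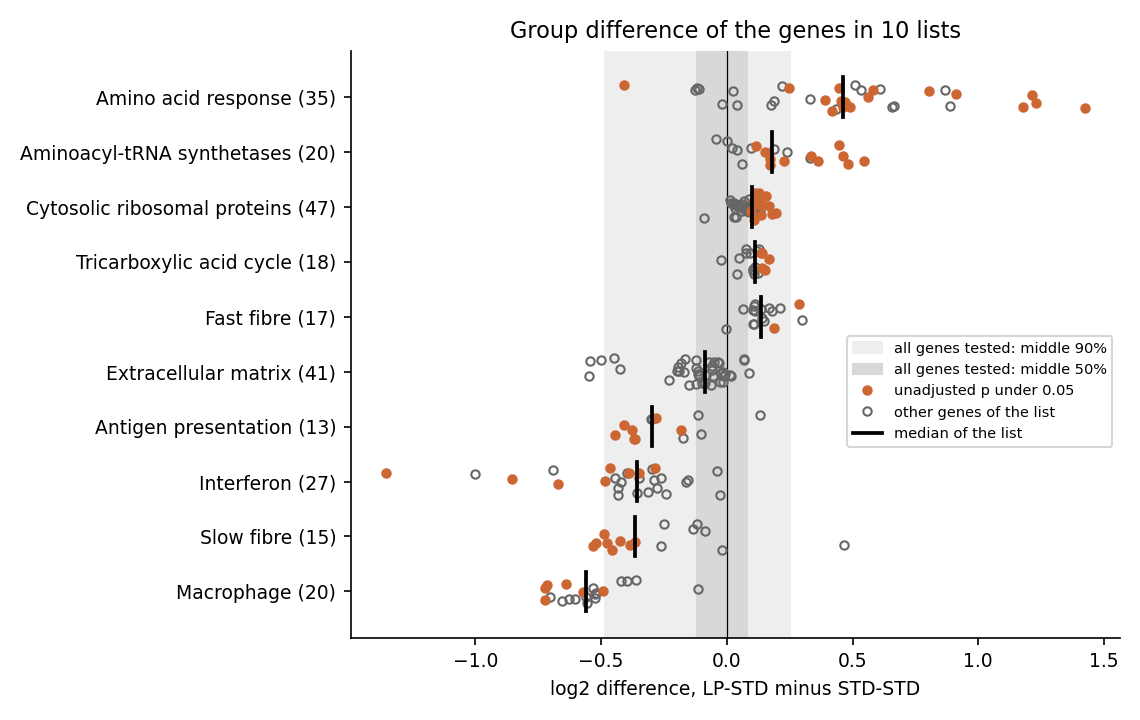
Each point is 1 gene of a list, placed at its log2 difference of LP-STD minus STD-STD, with genes at an unadjusted p under 0.05 filled and the list median as a bar; the grey bands hold the middle of all genes tested. The medians run from 0.46 for the amino acid response to -0.56 for macrophage genes, and the ribosomal protein genes lie close together around 0.10.

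Slow fibre genes lay lower in LP-STD. Of 15 tested, 8 were lower and 0 higher at an unadjusted p under 0.05, 1 difference was above 0 (LMOD2, chosen after its value was seen), and the median was -0.37. With correlated runs 7 were lower, and with counts summed over each run 5 were lower. In bulk muscle a smaller share of slow fibres and less of these transcripts per slow fibre cannot be told apart. TNNI1, the slow troponin I, ranged from 398 to 1320 CPM in STD-STD (median 707) and from 390 to 828 CPM in LP-STD (median 558), a log2 difference of -0.49 ± 0.16. TNNC1, the troponin C of slow and cardiac muscle, ranged from 375 to 1360 CPM (median 724) and from 376 to 762 CPM (median 558), a difference of -0.53 ± 0.16. MYL2, a slow myosin regulatory light chain, had medians of 968 CPM in STD-STD and 661 CPM in LP-STD, a difference of -0.48 ± 0.18. For these genes the lowest values of the groups were close, and the STD-STD group reached higher.

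The calcium pump of slow fibres ATP2A2 had a log2 difference of -0.43 ± 0.15, the slow troponin T gene TNNT1 had -0.52 ± 0.17 and the myosin light chain MYL3 had -0.37 ± 0.17. The myosin heavy chain MYH7B had -0.39 ± 0.17 and MYOZ2, a Z-disc protein of slow fibres, had -0.46 ± 0.18. The median of the list was -0.22, -0.50 and -0.39 in the 3 sets. Without run 1 of LP-STD the median was -0.58 with 9 genes lower, and with 2 surrogate variables it was -0.48 with 11 lower. It was nearer 0 without run 1 of STD-STD (-0.23, with 3 lower and 1 higher), without run 2 of LP-STD (-0.31, with 3 lower and 1 higher) and without run 3 of LP-STD (-0.27, with 4 lower and 1 higher). MYL3 moved to -0.24 without STD-STD replicate 5. The mean log2(CPM + 0.5) of the list ranged from 8.05 to 9.49 in STD-STD and from 8.06 to 9.07 in LP-STD. LP-STD10 and LP-STD20, which are compared with the same STD-STD libraries, had list medians of -0.39 and -0.24.

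**Figure D3:**
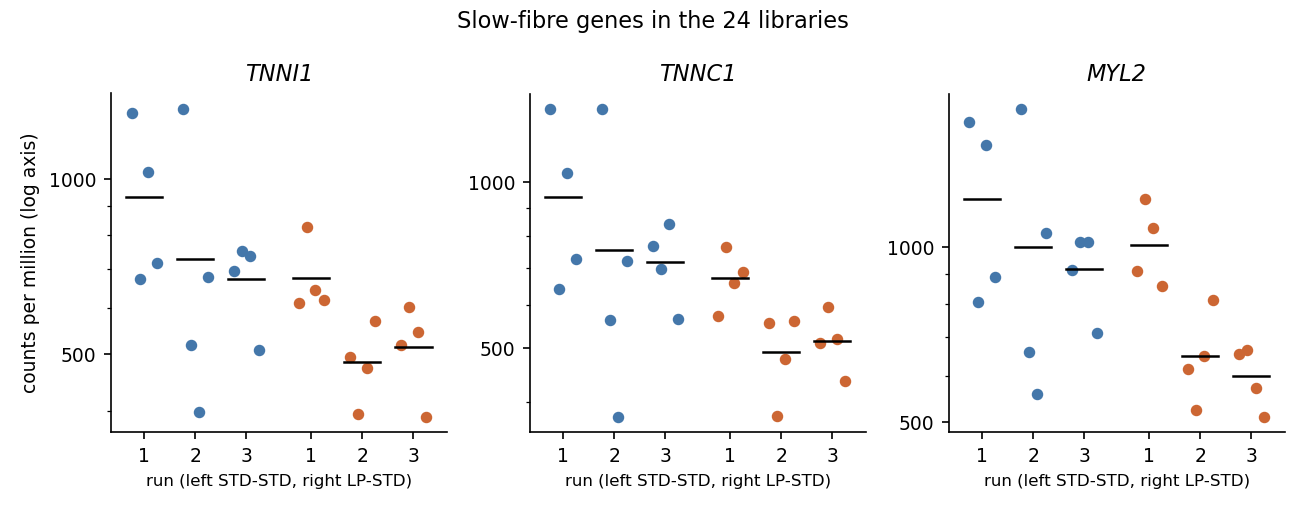
Each point is 1 library, in CPM on a log axis, for the slow fibre genes TNNI1, TNNC1 and MYL2, with STD-STD in blue and LP-STD in orange by run, and the line is the mean of a run. TNNI1 had run means of 932, 728 and 674 CPM in STD-STD and 676, 484 and 514 CPM in LP-STD.

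MYOM3, HSPB6 and MYL6 were among the genes with lower values in LP-STD and the lowest p-values. MYOM3, an M-band protein, ranged from 48.5 to 194 CPM in STD-STD (median 117) and from 56.8 to 110 CPM in LP-STD (median 70.3), a log2 difference of -0.66 ± 0.18. HSPB6, a small heat shock protein of muscle (chromosome 6, 45181439 to 45184011), ranged from 275 to 661 CPM (median 409) and from 259 to 434 CPM (median 337), a difference of -0.40 ± 0.10. MYL6, a myosin light chain of nonmuscle and smooth muscle, had medians of 227 CPM in STD-STD and 169 CPM in LP-STD, a difference of -0.53 ± 0.14. Fast fibre genes had 16 of 17 differences above 0, 2 of them at an unadjusted p under 0.05, and a median of 0.14, which was -0.02 with 2 surrogate variables. The pair were the tropomyosin TPM1 (0.29 ± 0.10) and the fast myosin-binding protein C gene MYBPC2 (0.19 ± 0.09), which had medians of 11500 CPM in LP-STD and 9880 CPM in STD-STD. Of 18 genes of the tricarboxylic acid cycle 5 were higher and 0 lower, with a median of 0.11, and 0 with correlated runs.

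Genes of immune cells lay lower in LP-STD. Of 20 macrophage genes 6 were lower and 0 higher at an unadjusted p under 0.05, 0 differences were above 0, and the median was -0.56. With correlated runs 2 were lower. C1QA, a chain of the complement component C1q that tissue macrophages secrete, ranged from 8.43 to 33.8 CPM in STD-STD (median 19.5) and from 8.37 to 26.6 CPM in LP-STD (median 13.2), a difference of -0.57 ± 0.20. Its partner C1QB had medians of 25.7 CPM and 18.5 CPM, a difference of -0.64 ± 0.24. The medians of the list were -1.18, -0.19 and -0.43 in the 3 sets, -0.40 with 1 gene lower without run 1 of LP-STD, and 0.01 with 2 surrogate variables. Leaving out run 1 of STD-STD or run 3 of LP-STD left 0 genes lower, and leaving out run 2 of LP-STD gave 19 lower with a median of -0.90. LP-STD10 and LP-STD20, against the same STD-STD libraries, had medians of 0.23 and 0.30.

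Interferon-induced genes had 8 of 27 lower, 0 higher and a median of -0.36, with 1 lower with correlated runs, 1 without run 1 of LP-STD and 0 with 2 surrogate variables. CXCL10, a chemokine that attracts T cells, reached 35.2 CPM in STD-STD and 7.23 CPM in LP-STD, with medians of 3.43 and 2.98 CPM and a difference of -1.36 ± 0.48. IRF1, a transcription factor induced by interferon, ranged from 7.15 to 55.7 CPM and from 7.61 to 14.3 CPM, a difference of -0.67 ± 0.25 that was -0.31 without STD-STD replicate 4 and -0.19 with 2 surrogate variables. The ubiquitin-like ISG15 had -0.85 ± 0.36. In all 3 the medians of the groups lay closer than their highest values.

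Of 13 antigen presentation genes 7 were lower and 0 higher, with a median of -0.30, and 5 were lower with correlated runs. SLA-8, a class I gene, ranged from 15.5 to 22.9 CPM in STD-STD (median 16.7) and from 10.5 to 18.6 CPM in LP-STD (median 14.5), a difference of -0.28 ± 0.09. SLA-DRA, a class II chain, had medians of 78.1 and 58.9 CPM, a difference of -0.38 ± 0.15, and CIITA, the activator of class II genes, had -0.18 ± 0.08. Reads of SLA genes can be shared among their copies and alleles. With 2 surrogate variables the median of the list was -0.07 with 0 lower, and without run 1 of STD-STD or run 3 of LP-STD 1 was lower. Of 16 lymphocyte genes 4 were lower and 0 higher, with a median of -0.36, and a median of 0.10 in the second set. With correlated runs 1 was lower, and with 2 surrogate variables 0 were lower with a median of -0.08. Without run 1 of LP-STD 1 was lower with a median of -0.15.

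**Figure D4:**
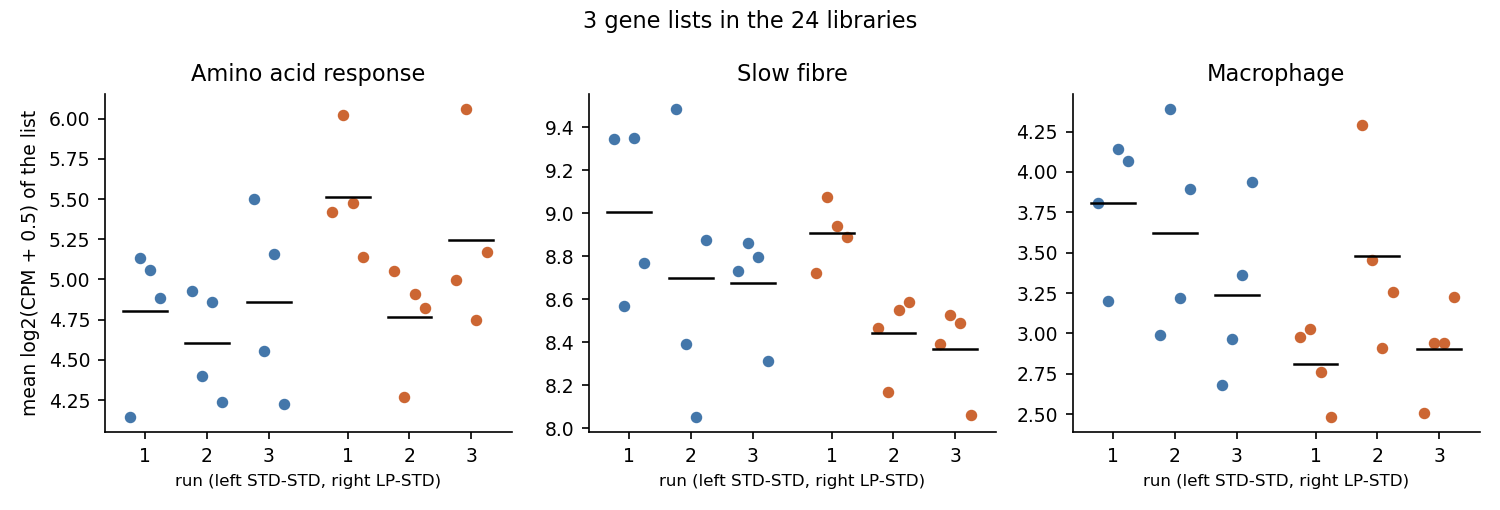
Each point is 1 library, at the mean log2(CPM + 0.5) of the list, for the amino acid response, slow fibre and macrophage lists, with STD-STD in blue and LP-STD in orange by run, and the line is the mean of a run. The groups overlap in all 3 lists, and the macrophage values of run 1 of LP-STD, 2.48 to 3.02, lie below the 3.20 to 4.14 of run 1 of STD-STD.

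Genes of embryonic and regenerating fibres also had their lowest median in the first set. Of 14 tested, 3 were lower and 0 higher at an unadjusted p under 0.05, with a median of -0.33, and the medians in the 3 sets were -0.86, -0.12 and -0.13. With 2 surrogate variables the median was -0.02, with 2 genes higher and 0 lower, and without run 1 of LP-STD 0 were lower with a median of -0.21. MYOG, the transcription factor of myoblast differentiation, stood at 56.5, 54.0, 54.2 and 50.5 CPM in run 1 of LP-STD, below the lowest STD-STD library at 69.8 CPM. Over all libraries its medians were 78.2 CPM in LP-STD and 95.3 CPM in STD-STD, the difference was -0.34 ± 0.13, and it differed between the runs of LP-STD (edgeR adjusted p = 0.03). TNNT2, the cardiac troponin T that regenerating fibres express, ranged from 8.71 to 251 CPM in STD-STD and from 2.31 to 165 CPM in LP-STD, a difference of -1.37 ± 0.64. CHRNA1, the acetylcholine receptor subunit that spreads beyond the synapse in immature or denervated fibres, had medians of 53.8 CPM in STD-STD and 24.3 CPM in LP-STD, a difference of -0.87 ± 0.42. The run means of CHRNA1 were 91.7, 78.8 and 47.4 CPM in STD-STD and 19.2, 69.7 and 30.9 CPM in LP-STD, so run 1 set the groups furthest apart. Without LP-STD replicate 5 the differences were -2.32 for TNNT2 and -1.32 for CHRNA1, and with 2 surrogate variables they were -0.47 and -0.15.

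Lists of growth factors and the breakdown machinery had small medians, while some of their genes differed by more. IGF1, the local growth factor of muscle, ranged from 1.12 to 3.01 CPM in STD-STD and from 0.98 to 2.04 CPM in LP-STD, a difference of -0.29 ± 0.18 with a 95% interval of -0.65 to 0.06. IGF2, its imprinted relative, had -0.22 ± 0.13 (95% interval -0.48 to 0.04), and -0.13 without STD-STD replicate 7. The receptors lay on the other side, with the growth hormone receptor GHR at 0.23 ± 0.10 and the IGF receptor IGF1R at 0.31 ± 0.14. Over 13 genes of the axis 2 were higher and 1 lower, with a median of -0.09 and differences from -0.29 to 1.06. MSTN, myostatin, which limits muscle mass, had medians of 26.0 CPM in LP-STD and 22.9 CPM in STD-STD and a difference of 0.13 ± 0.15 (95% interval -0.16 to 0.42). Of 18 genes of its pathway 0 were higher and 1 lower.

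Of 17 ubiquitin ligase and atrophy genes 2 were higher and 0 lower, with a median of 0.06. FBXO32, the atrophy ligase atrogin-1, ranged from 25.9 to 50.3 CPM in STD-STD (median 33.6) and from 20.6 to 97.8 CPM in LP-STD (median 47.3), a difference of 0.54 ± 0.27. Its run means in LP-STD were 80.5, 44.4 and 37.7 CPM. TRIM63, the ligase MuRF1, had 0.23 ± 0.16 (95% interval -0.09 to 0.56), and FBXO30, a ligase that acts in atrophy in mice, had 0.26 ± 0.08. The proteasome list had 5 of 29 genes higher and 1 lower, with a median of 0.06. Extracellular matrix genes had 0 of 41 past an unadjusted p of 0.05, with 36 differences below 0 and a median of -0.09. Cell division genes had 0 of 30 past that p and a median of 0.05.

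Several of the genes with the lowest p-values belong to none of these lists, and some had LP-STD medians above the whole STD-STD range. ZNF236, a zinc finger protein, ranged from 5.00 to 8.67 CPM in STD-STD (median 6.72) and from 6.62 to 12.8 CPM in LP-STD (median 8.95), a difference of 0.45 ± 0.10, adjusted p = 0.168 (edgeR). ZC3H14, which binds the poly(A) tails of RNA, ranged from 24.0 to 28.1 CPM and from 26.2 to 32.4 CPM, with medians of 26.2 and 29.2 CPM and a difference of 0.16 ± 0.04. STAMBPL1, a deubiquitinase, had 1.98 to 3.47 CPM in STD-STD and 2.79 to 5.26 CPM in LP-STD, a difference of 0.54 ± 0.14. In each of these 3 the ranges overlapped, and the LP-STD median lay above the highest STD-STD library.

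The histone demethylase KDM4A was higher by 0.20 ± 0.05, with medians of 30.1 CPM in LP-STD and 25.1 CPM in STD-STD. The ubiquitin ligase SH3RF1 was higher by 0.46 ± 0.12, PYGO1 of the Wnt pathway by 0.50 ± 0.13, PHF20L1, which reads methylated lysines, by 0.31 ± 0.08, and C16H5orf51 by 0.27 ± 0.07. Among genes with lower values NTF4, a neurotrophin, ranged from 7.15 to 12.5 CPM in STD-STD (median 9.33) and from 2.89 to 9.60 CPM in LP-STD (median 6.61), a difference of -0.48 ± 0.13. Its neighbour LHB, known as the beta chain of luteinising hormone, had -0.75 ± 0.20, with medians of 4.01 and 6.90 CPM. LHB lies at 54263574 to 54269286 and NTF4 at 54271244 to 54288846 on chromosome 6, so reads of the pair may not be fully separate. The small GTPase ARL3 had -0.33 ± 0.09 and the ubiquitin ligase adaptor KLHL18 had -0.25 ± 0.07. SLC17A7, chosen after its values were seen, had the lowest p of all genes but stood at only 0 to 1.64 CPM in STD-STD and 0 to 0.21 CPM in LP-STD.

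PCK1, UMOD and LRP2 also had low p-values, and STD-STD replicate 4 was the highest library in each. PCK1, the gluconeogenic enzyme of liver and kidney, stood there at 72.8 CPM, against at most 9.01 CPM in the other STD-STD libraries and 5.55 CPM in LP-STD. Its log2 difference of -2.32 ± 0.60 was -1.14 without STD-STD replicates 4 and 10. UMOD had -3.03 and LRP2, a receptor of kidney tubules, had -2.05 ± 0.54, which were -1.23 and -0.79 without these libraries. Without both libraries the amino acid response had a median of 0.43 with 9 genes higher, in place of 16, and interferon-induced genes had -0.33 with 3 lower, in place of 8. Slow fibre genes then had -0.38 with 8 lower, and macrophage genes -0.57 with 5 lower.

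In the first period the low protein and standard diets were compared in other pigs, LP against STD. There 0 of 12584 genes passed (edgeR quasi-likelihood test), 567 (4.51%) were higher and 572 (4.55%) lower at an unadjusted p under 0.05, and DESeq2 called 130. Ribosomal protein genes had a median of -0.26 in LP against STD with 36 of 47 lower, set beside 0.10 in LP-STD against STD-STD. For the amino acid response the medians were -0.30 with 4 of 35 lower in the first period and 0.46 in the second, and for the synthetases -0.18 with 4 of 20 lower and 0.18. Extracellular matrix genes had 0.28 with 23 of 41 higher in the first period and -0.09 in the second. Cell division genes had 0.35 with 11 of 30 higher and 0.05, and slow fibre genes had 0.08 and -0.37. PDK4 ranged from 3.07 to 343 CPM in LP and from 3.46 to 54.8 CPM in STD, a log2 difference of 2.88 ± 1.39. PIK3R1 had -0.98 in the first period beside -0.26 in the second.

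Whether the difference between the groups by first diet was the same in the 2 periods was tested as an interaction over all 67 libraries. It passed for 22 of 13517 genes (0.163%, edgeR quasi-likelihood test, adjusted p under 0.05), 21 with a more positive difference in the second period. Of the 47 ribosomal protein genes 13 were among them. BTC, betacellulin, a ligand of the epidermal growth factor receptor (chromosome 8, 70645721 to 70697538), ranged from 14.3 to 39.9 CPM in LP and from 42.1 to 75.2 CPM in STD, which did not overlap. In the second period it ranged from 16.3 to 72.4 CPM in LP-STD (median 35.2) and from 8.77 to 39.9 CPM in STD-STD (median 19.0). Its log2 differences were -1.05 ± 0.21 in the first period and 0.76 ± 0.22 in the second, on opposite sides of 0, and the interaction was 1.81 (adjusted p = 0.0317, edgeR). Run means of BTC were 48.1, 25.3 and 33.5 CPM in LP-STD and 15.7, 19.8 and 27.2 CPM in STD-STD, so LP-STD lay higher in each set.

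EIF2S2 had -0.54 ± 0.18 in the first period and 0.34 ± 0.10 in the second, with an interaction of 0.87 (adjusted p = 0.0268, edgeR). RPL15, a protein of the large ribosomal subunit, ranged from 195 to 222 CPM in LP and from 255 to 278 CPM in STD, and its differences were -0.34 and 0.14. NMRK2, a muscle kinase of the NAD pathway, ranged from 18.0 to 38.7 CPM in LP and from 60.1 to 157 CPM in STD, a difference of -1.75 ± 0.24. In the second period it had medians of 82.7 CPM in LP-STD and 104 CPM in STD-STD, a difference of -0.17 ± 0.17 (-0.10 without STD-STD replicate 5, -0.29 without LP-STD replicate 10), and the interaction was 1.58 (adjusted p = 0.0446, edgeR). The interaction rests on different pigs in each period and does not separate the period from age. In the first period the library numbers were also grouped by diet, 10 to 15 in STD and 8, 9 and 16 to 19 in LP.

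**Figure D5:**
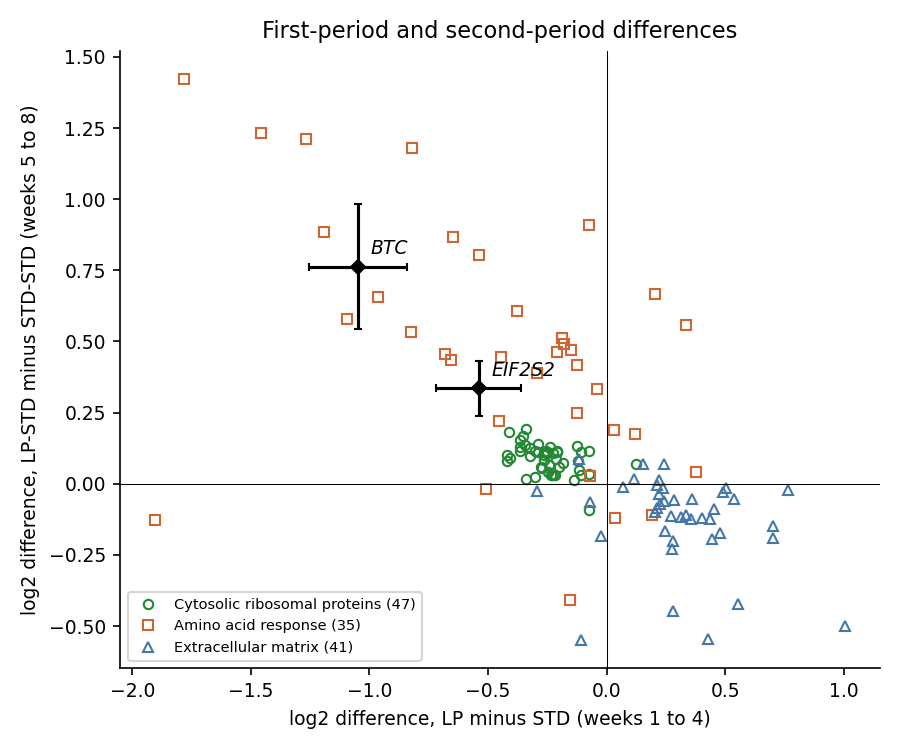
Each symbol is 1 gene, placed by its log2 difference of LP minus STD in the first period (horizontal) and of LP-STD minus STD-STD in the second (vertical), for 3 lists, with BTC and EIF2S2 as filled diamonds with SE bars. Ribosomal protein genes lie around -0.26 and 0.10, and extracellular matrix genes around 0.28 and -0.09.

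LP-STD10 and LP-STD20, which share the STD-STD libraries and ate more lysine in weeks 5 to 8, had other values for some of these genes and like values for others. PDK4 had log2 differences from STD-STD of 4.87 in LP-STD, 5.84 in LP-STD10 and 2.61 in LP-STD20. Slow fibre TNNI1 had -0.49, -0.53 and -0.33. For the amino acid response the medians were 0.46 in LP-STD, -0.35 in LP-STD10 and -0.10 in LP-STD20, and for ribosomal protein genes they were 0.10, 0.04 and 0.00. BTC had 0.76, 0.68 and 0.47. Each value is its own comparison with the shared controls, so likeness among them is not independent.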

How the data were processed

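The authors deposited raw whole-number read counts per gene symbol for 67 libraries (18158 genes). The submitters' processing notes name Sscrofa11.1 and, without a version, DESeq2. The aligner, the counting program and the strand setting were not given in the sources used here, so that overlapping and antisense genes are not separated with certainty. RNA extraction followed the RNeasy Plus Universal kit, per the labels' protocols. Of the gene names 16989 were found in RefSeq's table for Sscrofa11.1, the source of coordinates.

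Counts were tested with edgeR 4.0.16 (R 4.3.3; filterByExpr, TMM, robust quasi-likelihood F test, Benjamini-Hochberg adjustment at 0.05). The second-period fit used its 48 libraries, and the first-period fit its 12. Runs within LP-STD and STD-STD were tested in their 24 libraries. CPM values use TMM factors. Alternatives used DESeq2 1.42.0, limma 3.58.1 and sva 3.50.0, among others. The members, the 56 gene lists and the tests were chosen with earlier results of these data known, and the liver and kidney lists after the values were seen. Lists are described by counts and medians with no test. Not all lists are described or drawn, and no rule set which. Some left out were also one-sided, with 9 of 11 iron handling, 19 of 25 redox and 14 of 16 fibroadipogenic differences below 0. Of these 1, 3 and 3 were lower and 0 higher at an unadjusted p under 0.05. Named genes were drawn from the 10 lowest p-values in each direction (average log2 CPM of at least 1, no LOC number), the first 6 members of each list and the 6 lowest p-values of the other tests. Not all genes that this rule allows are given, so the members shown do not represent their lists. The antigen presentation genes named are all outside the rule. Outside this rule, and chosen after their values were seen, are ALB, BTC, C1QB, CARS1, CHRNA1, CHST9, CIITA, CRY2, CXCL10, DPYS, FGF21, GRB10, IRF1, LMOD2, MTOR, MYBPC2, MYH7B, MYOZ2, NR1D2, RPL15, RPL8, RPS4X, SLA-8, SLA-DRA, SLC17A7, STRA6, TNNC1, TNNT2 and TPM1. Total counts of 28871431 to 36634720 per library set the counting error. The highest correlation of any pair of the 24 libraries was 0.992, and none were merged. Replicates are separate pigs per the design text. The tests were checked on simulated counts. For the group test each library was drawn independently, so the check did not cover correlation within runs. It recovered 74.6% of 1.5-fold and 92.5% of 2-fold changes, and 11 unchanged genes were called.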

Additional observations from a re-analysis of the deposited data

Results flagged for a closer look

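For 6 genes that the text names, the difference between the groups by first diet was not the same in the 2 periods, by the interaction test in edgeR. The second-period minus first-period values on the log2 scale were 1.81 for BTC, 1.58 for NMRK2, 0.875 for EIF2S2, 0.522 for RPL8, 0.495 for RPS4X and 0.481 for RPL15. In BTC, EIF2S2, RPL8, RPS4X and RPL15 the first-period difference was negative and the second-period difference positive. In NMRK2 both were negative, -1.75 and -0.17. RPL8 had -0.37 and 0.15 and RPS4X had -0.37 and 0.13. The part of the runs of 4 libraries and of age in these values was not tested.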

How the results depend on the processing

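The group comparison was repeated under 44 alternatives, and 40 of them also gave 0 genes past the threshold. The exceptions were DESeq2 (7 genes), leaving out run 2 of STD-STD (2, ALB and SLC17A7), leaving out run 2 of LP-STD (188) and leaving out LP-STD replicate 3 (1, SLC17A7). Leaving out single libraries gave 0 to 1 genes. Whether the replicate numbers pair the pigs, for example by litter or day, is not given, and expression values cannot settle it. Correlations of the deviations of same-numbered libraries ranged from -0.271 to 0.351, and with the number as a block 0 genes passed. Run means of the 2 groups in the same set correlated at -0.04, 0.22 and 0.27 in sets 1, 2 and 3. The highest correlations with a run of another set were 0.15, 0.19 and -0.12. Genes differing between runs of both groups numbered 129 with edgeR and 619 with DESeq2. Genes whose difference varied between the 3 sets numbered 0 with edgeR (815 at an unadjusted p under 0.05) and 7 with DESeq2. For the first period edgeR gave 0 (also with a replicate block) and DESeq2 130. The interaction gave 22, against 77 with limma voom and quality weights, 52 with only the compared groups and 77 with DESeq2, alternatives chosen after seeing the data. None of the 74 genes given with a difference changed sign under an alternative. Many of them were chosen for low p-values or after their values were seen, and most alternatives only left out libraries. A constant sign was therefore likely from the start and is no separate support. Sizes did move, as for PDK4 from 4.87 to 1.31 and IRS2 from 0.77 to 0.16 without run 1 of LP-STD. The cause of the other movements was not tested.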
